A study of Mus musculus with 16 samples.

Results

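The genes of the mitochondrial ribosome were described in sorted mouse blood stem and progenitor cells. Members were the genes of the array annotation whose symbol is Mrpl or Mrps followed by a number, with or without a further letter. The rule found 76 of the 18193 genes on the array, 47 with a large subunit symbol (Mrpl) and 29 with a small subunit symbol (Mrps). They lie on 17 chromosomes. No measured value entered the choice. The 76 genes carried 156 probe sets with a single symbol. Where a gene had several, the one of highest mean across all 16 arrays stood for it, which concerned 42 members and left 34 with only 1. Every member lay above the 40th percentile of each array on all 16 arrays, so none entered a test only through a group in which it was high.

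The series asks how hematopoietic stem cells (HSC) of mice that accumulate mitochondrial DNA mutations compare with stem cells of young and old mice. HSC are the multipotent cells that renew the blood. All cells came from bone marrow of C57Bl6 mice labelled female, were sorted, and gave biotin-labelled RNA from 4000 to 7000 cells an array. Young HSC (3 arrays) were from wild-type mice of 9 to 12 weeks and old HSC (3 arrays) from wild-type mice of 24 months. Mutator HSC (3 arrays) were from mice of 32 weeks with the genotype Polgtm1Lrsn-/-, an allele that removes the proofreading of the mitochondrial DNA polymerase in every tissue of the animal. Mid-aged wild-type HSC (3 arrays) were from Polgtm1Lrsn+/+ mice of 32 weeks. Common lymphoid progenitors (CLP), the precursors of lymphocytes, were from wild-type mice of 8 to 12 weeks. They were sorted as Ly6D-negative (2 arrays) or Ly6D-positive (2 arrays), and Ly6D marks CLP committed towards B cells. The allele changes the enzyme and does not remove its transcript, so the Polg signal does not check the genotype. The labels call the replicates biological and do not say whether animals were pooled.

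Mitochondrial ribosomes translate the few proteins encoded by mitochondrial DNA, all of them core subunits of the respiratory chain and the ATP synthase. Their ribosomal RNAs come from mitochondrial DNA, whereas all their proteins are encoded in the nucleus, made in the cytosol and imported. Many of these proteins have a counterpart in bacterial ribosomes, and others are particular to mitochondria. Resting HSC depend little on respiration and need it when they leave rest and differentiate. Some symbols mislead: the proteins of Mrps18a and Mrps30 sit in the large subunit, and the Mrps36 protein is now assigned to the oxoglutarate dehydrogenase complex.

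The sorted identities followed their markers. The mean log2 value of 11 HSC marker genes was 9.19 to 10.60 on the 12 HSC arrays and 6.30 to 7.05 on the 4 CLP arrays. For 12 CLP markers it was 10.43 to 10.71 in Ly6D-positive CLP, 7.96 to 8.09 in Ly6D-negative CLP and 5.18 to 5.82 in HSC. Some arrays went against their labels or stood apart. Xist, the transcript of the inactive X chromosome, had intensities of 9.12 to 16.8 on mid-aged wild-type replicate 3 and on all 4 CLP arrays, against 3507 to 11022 on the other 11, although every sample is labelled female. The log2 ratio of 3′ to 5′ actin signal, a sign of RNA length, was 2.20 to 2.61 in young and old HSC and 4.24 to 5.26 on the 6 mid-aged arrays. In CLP it was 2.11 to 2.52 on 3 arrays and 3.85 on Ly6D-positive replicate 2, which stood apart. Young replicates 2 and 3 were the closest pair of replicates (SD of their log2 difference over genes 0.180), and no arrays were identical.

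Stretches before the start are shown for the 6 members of largest change among those whose call in Ly6D-negative CLP held with any 1 array left out, so that risers and fallers can be set side by side. The signal of 4 rose (Mrpl41, Mrps18a, Mrpl46 and Mrpl52) and that of 2 fell (Mrps2 and Mrpl50). Each runs over the 120 bases up to the annotated transcription start, 5′ to 3′ on the gene's strand, from RefSeq promoter windows on GRCm38.p6. Capitals mark the ETS core CCGGAAG or its reverse complement CTTCCGG, a motif bound by factors such as GABPA (NRF-2), known from many nuclear genes for mitochondrial proteins.
Mrpl41 (chr2:24975099-24975218, minus strand): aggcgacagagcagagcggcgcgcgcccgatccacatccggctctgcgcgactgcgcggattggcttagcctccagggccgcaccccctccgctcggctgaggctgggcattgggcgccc
Mrps18a (chr17:46110884-46111003, plus strand): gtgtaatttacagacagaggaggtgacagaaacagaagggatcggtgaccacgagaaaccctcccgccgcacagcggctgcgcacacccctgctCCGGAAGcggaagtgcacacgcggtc
Mrpl46 (chr7:78783090-78783209, minus strand): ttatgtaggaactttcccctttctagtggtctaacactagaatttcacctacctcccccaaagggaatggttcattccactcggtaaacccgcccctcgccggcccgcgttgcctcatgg
Mrpl52 (chr14:54426789-54426908, plus strand): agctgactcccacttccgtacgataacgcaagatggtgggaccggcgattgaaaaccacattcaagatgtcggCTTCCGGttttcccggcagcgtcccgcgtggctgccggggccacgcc
Mrps2 (chr2:28467946-28468065, plus strand): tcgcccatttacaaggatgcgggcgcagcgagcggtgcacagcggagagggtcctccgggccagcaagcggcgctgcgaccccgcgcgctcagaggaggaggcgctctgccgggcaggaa
Mrpl50 (chr4:49521084-49521203, minus strand): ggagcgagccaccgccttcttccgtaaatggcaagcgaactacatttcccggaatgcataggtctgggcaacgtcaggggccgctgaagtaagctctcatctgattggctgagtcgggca
Mrps18a and Mrpl52 hold the ETS core once in this stretch, and the other 4 have no match. Windows of 250 bases before to 50 bases after the start were found for 67 of the 76 members and searched on both strands. The ETS core was present in 25 of 67 (37.3%), against 9.93% of 27025 genes and 12.9% of 17491 protein-coding genes. For the YY1 core AAGATGGC the count was 12 of 67 (17.9%), against 3.19% of all genes. The NRF1 palindrome was in 3 (4.48%, against 1.07%), and the E-box CACGTG, the site of MYC and its partners, in 5 (7.46%, against 8.09%). Of the 41 large subunit windows 14 held the ETS core, and of the 26 small subunit windows 11 did. The ETS and YY1 cores can share the bases AAG, and did so in 0 members. In all, 34 members held the ETS or the YY1 core. These are matches of letters, not measured binding.

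Across the groups both subunits moved together. On the plot of subunit medians by array, each gene was set to its mean over the 6 groups. The median over large subunit genes was 0.19 to 0.43 log2 units above that mean on the 4 CLP arrays, and the median over small subunit genes was 0.11 to 0.30 above it. On the old HSC arrays the medians were -0.46 to -0.23 for the large and -0.43 to -0.02 for the small subunit. Young HSC lay between, at -0.12 to 0.20 and -0.07 to 0.20. Mid-aged wild-type HSC reached from -0.15 to 0.19 and from -0.20 to 0.04, and mutator HSC from -0.42 to 0.09 and from -0.31 to 0.07. All CLP arrays stood above all old HSC arrays for both subunits. In the large subunit the old arrays also lay below every young and every mid-aged wild-type array, whereas mutator HSC overlapped with each of the other HSC groups. Over all 14353 genes tested the array medians stayed between -0.08 and 0.05. In bulk RNA, fewer cells of a type and less RNA per cell cannot be told apart.

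**Figure D1:**
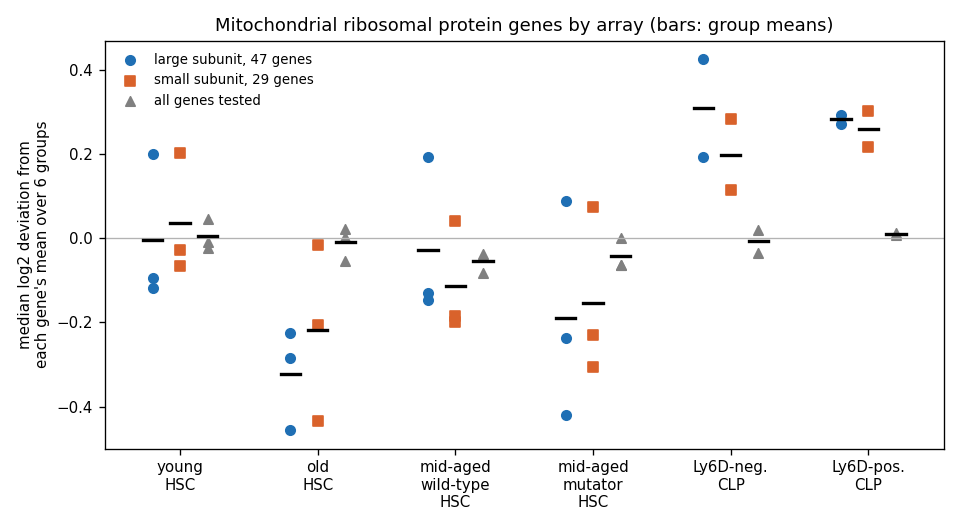
Median log2 deviation of large subunit genes (circles), small subunit genes (squares) and all genes tested (triangles) from each gene's mean over the 6 groups, with 1 point per array and a bar at each group mean. The CLP arrays lie at 0.11 or higher for both subunits and the old HSC arrays below 0.

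Members also moved together from replicate to replicate. Young replicate 1 held the highest of the 3 young values for 61 of 76 members (80.3%), against 51.3% of all genes. Mutator replicate 3 was highest for 62 members (81.6%, against 44.5%), and old replicate 2 was lowest for 60, against 48.2% of all genes. The members' values thus share array-wide shifts and are not independent of each other. The spread between replicates, as the median SD over members, was 0.166 log2 units for young and 0.178 for old HSC. It was larger in the mid-aged groups, at 0.361 for wild-type and 0.332 for mutator HSC. In CLP it was 0.260 in Ly6D-negative and 0.295 in Ly6D-positive CLP.

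Old HSC had lower signals than young HSC for nearly the whole set, by small amounts, and no single member passed the test. The change was negative for 72 of 76 members, 46 of 47 large and 26 of 29 small subunit genes. Its median was -0.26 on the log2 scale (a 1.20-fold difference), against -0.01 over all 13490 genes tested. Here a call means an adjusted p under 0.05 in limma, Benjamini-Hochberg adjusted over all genes tested. None of the 76 members was called, against 1.30% of all genes, and the smallest adjusted p was 0.208 (Mrpl28). At an unadjusted p under 0.05 there were 11 members (14.5%), against 9.03% of all genes. All 3 old arrays lay below all 3 young arrays for 39 members (51.3%), 27 large and 12 small, against 13.2% of all genes. The opposite order was seen for none, against 14.0% of all genes.

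The members described next belong to both subunits and are some of the 39 whose groups did not overlap. Mrpl12 is among them because it was set to be named always. Mrpl28 (chromosome 17), a protein with a bacterial counterpart, had intensities of 368, 305 and 318 in young and 222, 196 and 238 in old HSC (log2 change -0.56 ± 0.172, SE, adjusted p 0.208, n = 3 and 3). Every old value was below every young one. Mrps15 (chromosome 4), which helps to form the platform of the small subunit, was at 700.2, 683 and 699.7 in young and 431, 467 and 491 in old HSC (-0.57 ± 0.233, SE, adjusted p 0.443). Mrpl33 (chromosome 5), a small protein of the large subunit, was at 257, 241 and 256 against 143, 164 and 199 (-0.55 ± 0.174, SE, adjusted p 0.233). The young values of both genes lay within a narrow band that no old array reached. Mrps28 (chromosome 3) had the most negative change of the set (-0.71 ± 0.246, SE, adjusted p 0.289), with 269.6, 209 and 200.0 in young and 160.3, 118 and 119 in old HSC. Mrpl12 (chromosome 11), a protein of the large subunit stalk that has also been reported to bind the mitochondrial RNA polymerase, was at 475, 370.2 and 411 against 345, 238 and 316 (-0.47 ± 0.189, SE, adjusted p 0.427).

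The 4 members with a positive change were Mrps5 (0.29 ± 0.324, SE), Mrpl52 (0.26 ± 0.222, SE), Mrps27 (0.07) and Mrps34 (0.03). Young and old values overlapped in each of them. Mrps5, a small subunit protein with a bacterial counterpart, was at 264, 185 and 250.2 in young and 320.4, 296 and 246 in old HSC. Of the 144 member probe sets tested, 124 had a negative change, and 11 of the 37 genes with several tested probe sets had probe sets of both signs.

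Fitted on the 6 young and old arrays alone, 8 members were called lower, namely Mrpl13, Mrpl18, Mrpl28, Mrpl33, Mrpl37, Mrpl47, Mrps15 and Mrps28, and none higher. These are 10.5% of the set, against 7.37% of all genes called in either direction (994). With any 1 of these 6 arrays left out, 65 to 74 members stayed negative and the median was -0.34 to -0.20. Other lists differed alongside. HSC markers went the other way, with a positive change for 10 of 11 (median 0.36). Called higher were 3 of them, Hoxb5 (1.03), Procr (0.78) and Slamf1 (1.07). All 21 cell cycle genes had a negative change (median -0.99, 1 called lower), with summed intensities of 17876 to 21668 in old and 27965 to 37306 in young HSC. All 9 tested neutrophil markers did too (median -2.02, none called), and so did all 6 tested erythroid markers (median -0.90, none called). The sum over the 10 neutrophil markers on the array was 199.5 to 1594 in old and 1365 to 5852 in young HSC, and Mmp8 was at background in both. The actin 3′ to 5′ ratio was 2.20 to 2.27 in old and 2.39 to 2.61 in young HSC. The part of these differences in the members' change was not tested.

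**Figure D2:**
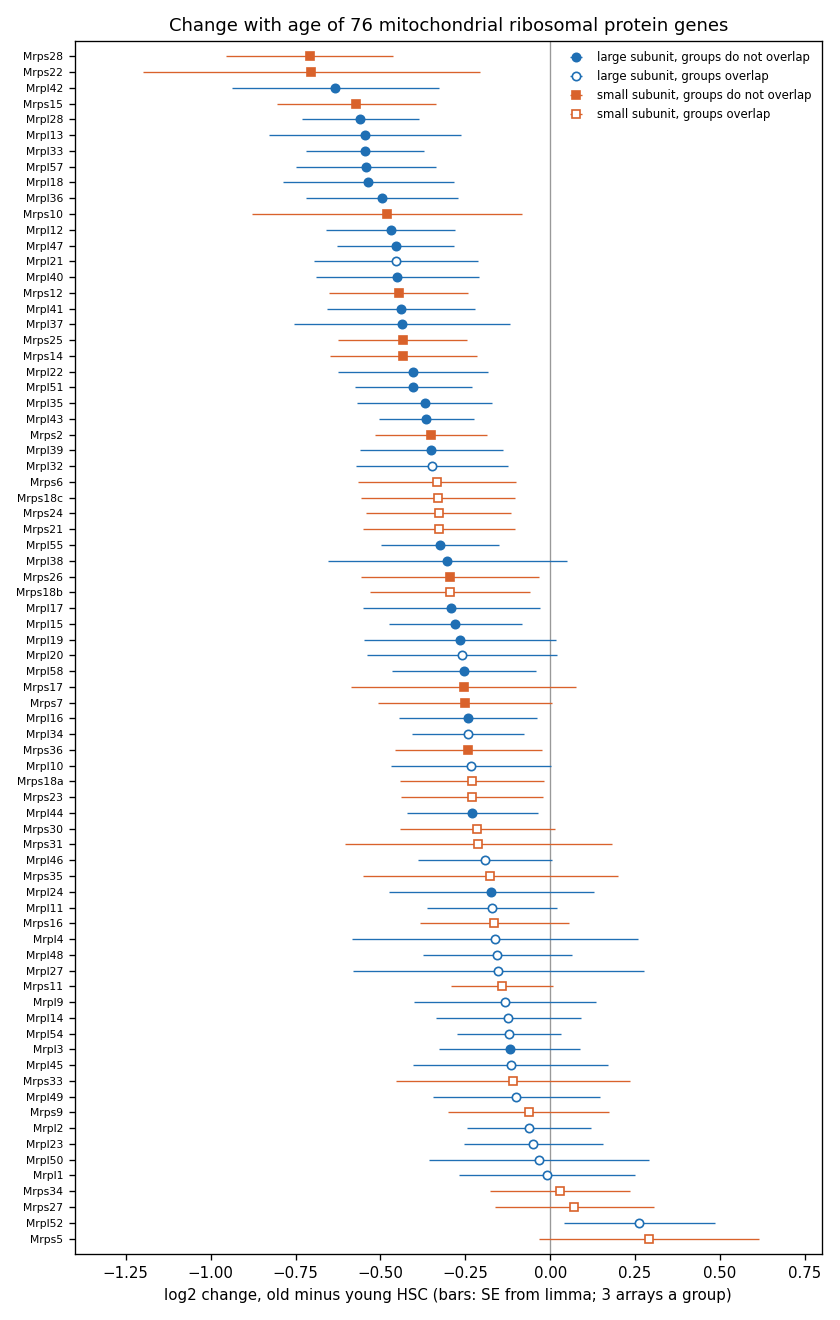
Log2 change from young to old HSC of each of the 76 members, with the SE from limma as bars, large subunit genes as circles and small subunit genes as squares. Filled symbols mark the 39 members whose old arrays all lie below all young arrays, and 72 of the 76 points lie left of 0.

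Mutator HSC were compared with mid-aged wild-type HSC of the same age to ask what accumulated mitochondrial DNA mutations do to this set. Wild-type replicate 3 is the array with low Xist (9.12, against 8171 to 11022 in mutator HSC), and the part of this was not tested. No member was called in limma, and none of the 13490 genes was (0%). The change was positive for 26 and negative for 50 members, with a median of -0.08, against 0.00 over all genes. At an unadjusted p under 0.05 there were 9 members (11.8%), against 7.30% of all genes. The smallest adjusted p was 0.605. Arrays did not overlap, with mutator lower, for 7 members (9.21%, against 2.97% of all genes), and with mutator higher for none (against 3.11%).

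The members with the smallest p are given as values. Mrpl18 (chromosome 17), a large subunit protein with a bacterial counterpart, was at 169, 399.5 and 224 in mid-aged wild-type and 370.3, 463 and 508 in mutator HSC (0.80 ± 0.252, SE, adjusted p 0.605). Mrps30 (chromosome 13) was at 206, 391 and 202 and 379, 415 and 503 (0.72 ± 0.228, SE, adjusted p 0.605). In both genes wild-type replicate 2 stood apart from the other wild-type arrays and lay within or near the mutator values. That array had an actin 3′ to 5′ ratio of 4.24, against 4.74 to 5.26 on the other mid-aged arrays. Mrpl50 had a log2 change of 0.63. In the other direction Mrpl43 (chromosome 19) was at 369.6, 392 and 422 in wild-type and 281, 293 and 286 in mutator HSC (-0.44 ± 0.140, SE, adjusted p 0.605), and Mrpl12 at 296, 401 and 369 and 239, 203 and 288 (-0.52 ± 0.189, SE, adjusted p 0.618). Neither gene's arrays overlapped between the groups. Mrps24 differed by -0.56. Without mid-aged wild-type replicate 2, 3 members were called higher in mutator HSC (3.95%, against 1.64% of all genes in either direction). With 1 array left out the members' median ran from -0.22 to 0.00.

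Whether the mutator effect differed from the effect of normal ageing was tested as 1 contrast, in which the old minus young change was subtracted from the mutator minus wild-type change. No member was called, against 0.511% of all genes, and 56 of 76 differences were positive (median 0.20, against 0.00 over all genes). The largest was that of Mrpl18 (1.33 ± 0.357, SE, adjusted p 0.203), followed by Mrps30 (0.94), Mrps22 (0.92, with an SE of 0.702) and Mrps28 (0.70). Mrpl52 had the most negative one (-0.82). Without mid-aged wild-type replicate 2, 2 members were called (2.63%, against 1.01% of all genes). The differences were positive for 21 of 21 cell cycle genes (median 1.04), 9 of 9 neutrophil markers (median 1.75) and 6 of 6 erythroid markers (median 0.92), without a call. The part of these lists in the members' values was not tested.

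Mid-aged wild-type and young HSC differ in age and also in the actin 3′ to 5′ ratio, at 4.24 to 5.26 against 2.39 to 2.61, and the parts of these in any change cannot be told apart. Of 11 HSC markers 5 were called lower, among them Cd34 (-1.69), Kit (-1.69) and Tek (-2.37), and none higher. Of 21 cell cycle genes 6 were called lower (median -0.56) and none higher, with summed intensities of 19171 to 26749 in mid-aged wild-type HSC. The part of these lists in the members' changes was not tested. Members went both ways: 12 were called higher and 12 lower, 31.6% of the set against 24.2% of all genes. Among all genes 6.42% were called higher and 17.7% lower. With quantile normalization the split was 17 higher and 7 lower (31.6%, against 22.7% of all genes in either direction). Of the large subunit genes 10 were higher and 8 lower, and of the small subunit genes 2 were higher and 4 lower. The median change was -0.21, against -0.04 over all genes.

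Mrpl52 (chromosome 14), particular to mitochondria, had the largest increase, from 897, 628 and 634 in young to 3717, 2203 and 2902 in mid-aged wild-type HSC (1.99 ± 0.222, SE, adjusted p 2.94e-04). Mrpl28 rose from 368, 305 and 318 to 1097, 1286 and 1159 (1.79 ± 0.172, SE, adjusted p 1.69e-04), and Mrpl41 (chromosome 2), another protein without a bacterial counterpart, from 521, 363 and 384 to 1265, 1072 and 1347 (1.52 ± 0.217, SE, adjusted p 9.61e-04). The lowest mid-aged value of each was more than the highest young one. Mrpl44, whose protein has a fold like that of RNase III, and Mrps24 each rose by 1.20. Among decreases, Mrpl50 (chromosome 4) fell from 845, 611 and 690.5 to 149.7, 415 and 170.2 (-1.61 ± 0.324, SE, adjusted p 0.00483), and Mrpl18 from 775, 698 and 698 to 169, 399.5 and 224 (-1.48 ± 0.252, SE, adjusted p 0.00216). Mrpl16 (-1.38), Mrps14 (-1.37) and Mrps5 (-1.35) fell too. These 3 have counterparts in bacterial ribosomes. With any 1 of the 6 arrays left out, the calls of Mrpl52, Mrpl28, Mrpl41, Mrpl44, Mrps24, Mrpl50, Mrpl18, Mrpl16, Mrps14 and Mrps5 all held. The calls of Mrpl44, Mrps24 and Mrps5 were lost with the mean of each gene's probe sets, and that of Mrps5 also when only the 6 arrays compared were fitted. Without mid-aged replicate 2, 10 members were higher and 18 lower (36.8%, against 30.9% of all genes in either direction). Without mid-aged replicate 3, the array with low Xist, 13 members were higher and 10 lower (30.3%, against 18.8% of all genes).

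Probe sets of the same gene often disagreed in this comparison. Of 37 members with several tested probe sets, 20 had probe sets of both signs and 2 had probe sets called in opposite directions. These were Mrpl48 (0.95 and -0.98) and Mrpl44. In Mrpl44 2 probe sets rose (1.20 and 1.01) while a further one fell by 1.11 and the last was at -0.61, which was not called. Mrps24 had a second probe set at -0.58. All 4 probe sets of Mrpl52 were positive (0.20 to 1.99), as were all 3 of Mrpl28 (0.90 to 1.79). The range between probe sets of a gene had a median of 0.961 log2 units here, against 0.248 in old against young HSC. Counting every probe set, 24 were higher and 23 lower of 144.

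**Figure D3:**
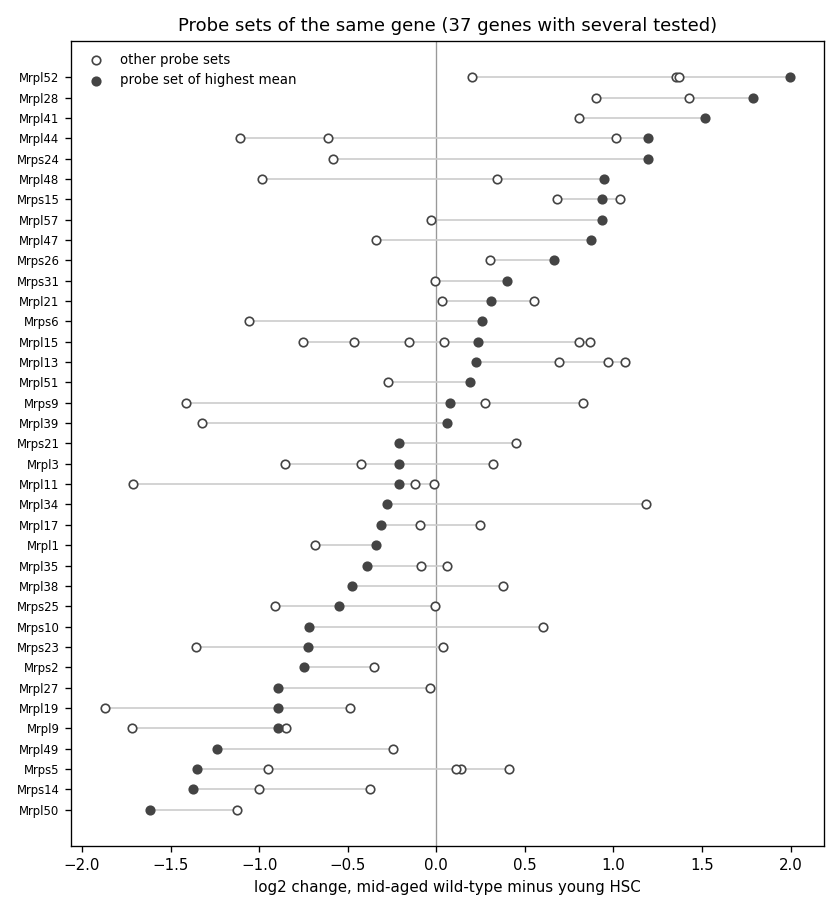
Log2 change from young to mid-aged wild-type HSC of every tested probe set of the 37 members with several, joined by a line per gene. Filled points are the probe sets of highest mean used in the text, and the lines of 20 genes cross 0.

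In CLP most members had a positive change against young HSC. The CLP arrays also had low Xist (9.22 to 16.8, against 3507 to 8041 in young HSC). The part of cell type and the part of whatever the low Xist reflects cannot be told apart. Named increases and decreases were picked as the largest. Both CLP comparisons use the same 3 young arrays, so their values are given side by side. In Ly6D-negative CLP 12 members were higher and 4 lower (21.1%, against 24.4% of all genes). In Ly6D-positive CLP 12 were higher and 6 lower (23.7%, against 24.3%). The share called was thus near that of all genes in both. Among all genes 9.55% were higher and 14.9% lower in Ly6D-negative CLP, and 10.4% and 13.9% in Ly6D-positive CLP. Changes were positive for 50 of 76 members in Ly6D-negative CLP (median 0.32) and for 53 in Ly6D-positive CLP (median 0.23), against medians of 0.00 and 0.01 over all genes. CLP arrays lay above all young arrays for 32 members (42.1%, against 26.6%) and below them for 14 (18.4%, against 31.0%) in Ly6D-negative CLP. In Ly6D-positive CLP the counts were 34 (44.7%, against 28.4%) and 9 (11.8%, against 30.0%). With quantile normalization the split in Ly6D-positive CLP was 15 higher and 4 lower.

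By subunit, 8 large and 4 small subunit genes rose in Ly6D-negative CLP, where 1 large and 3 small subunit genes fell. In Ly6D-positive CLP 7 large and 5 small subunit genes rose, and 4 large and 2 small subunit genes fell. The large subunit had medians of 0.35 and 0.31, and the small subunit of 0.27 and 0.21.

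Mrpl41 had intensities of 521, 363 and 384 in young HSC, 1507 and 1195 in Ly6D-negative CLP and 1464 and 1113 in Ly6D-positive CLP. The log2 changes were 1.65 ± 0.242, SE, adjusted p 3.42e-04 and 1.58 ± 0.242, SE, adjusted p 4.03e-04. The lowest CLP value was 1113, while the highest young value was 521. Mrps18a (chromosome 17) was at 284, 247 and 300.0, 759 and 967 and 628 and 566 in the same order of groups, with changes of 1.58 ± 0.229, SE, adjusted p 3.08e-04 and 1.07 ± 0.229, SE, adjusted p 0.00417. Its old and young HSC overlapped, at 191 to 266 and 247 to 300.0. Both genes kept their calls in both comparisons with any 1 array left out. Mrpl12 was at 475, 370.2 and 411, 852 and 698 and 782 and 817 (0.86 and 0.92). The call in Ly6D-negative CLP was lost without Ly6D-negative replicate 1.

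Further increases were called in 1 CLP group or in both. Mrpl46 (chromosome 7) rose in Ly6D-negative CLP from 313, 230.2 and 259 to 646 and 878 (1.45 ± 0.253, SE, adjusted p 0.00117). In Ly6D-positive CLP it was at 566 and 339 (0.69 ± 0.253, SE, adjusted p 0.0639). Mrpl52 rose by 1.09 and Mrpl40 by 1.06 in Ly6D-negative CLP, where the call of Mrpl40 was lost without Ly6D-negative replicate 2. Mrps26 gave the largest value in Ly6D-positive CLP (1.69 ± 0.414, SE, adjusted p 0.00939), from 362, 333 and 327 to 804 and 1593. Its 2 arrays differed widely, and the call was lost without the second, the CLP array with the high actin ratio (3.85). Mrpl43 (1.50), Mrps35 (1.37) and Mrpl57 (1.22) rose in Ly6D-positive CLP as well. The call of Mrps35 was lost without any 1 of the young arrays or without Ly6D-positive replicate 2, and that of Mrpl43 without Ly6D-positive replicate 1. The call of Mrpl57 was lost with the mean of its probe sets. Mrpl33 rose by 1.04 and 0.92 in the 2 CLP groups, and each call was lost without 1 CLP array (Ly6D-negative replicate 2, Ly6D-positive replicate 1).

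Decreases were fewer. Mrpl50, particular to mitochondria, was at 845, 611 and 690.5 in young HSC, 177 and 161 in Ly6D-negative CLP and 199 and 319 in Ly6D-positive CLP. The changes were -1.97 ± 0.357, SE, adjusted p 0.00152 and -1.43 ± 0.357, SE, adjusted p 0.0102. All CLP values lay below the lowest young value. The call in Ly6D-positive CLP was lost without Ly6D-positive replicate 1. The second probe set of Mrpl50 changed by -1.11 and -0.27. Mrps14 (-1.18) and Mrps25 (-0.80) fell in Ly6D-negative CLP, and Mrpl42 (-1.10), Mrpl16 (-0.94), Mrps25 (-0.80) and Mrpl3 (-0.77) in Ly6D-positive CLP. The calls of Mrps14, Mrpl42 and Mrpl3 were each lost without any 1 of the young arrays. The call of Mrps25 was lost without young replicate 1 in both comparisons, without either Ly6D-negative replicate, and without Ly6D-positive replicate 2.

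**Figure D4:**
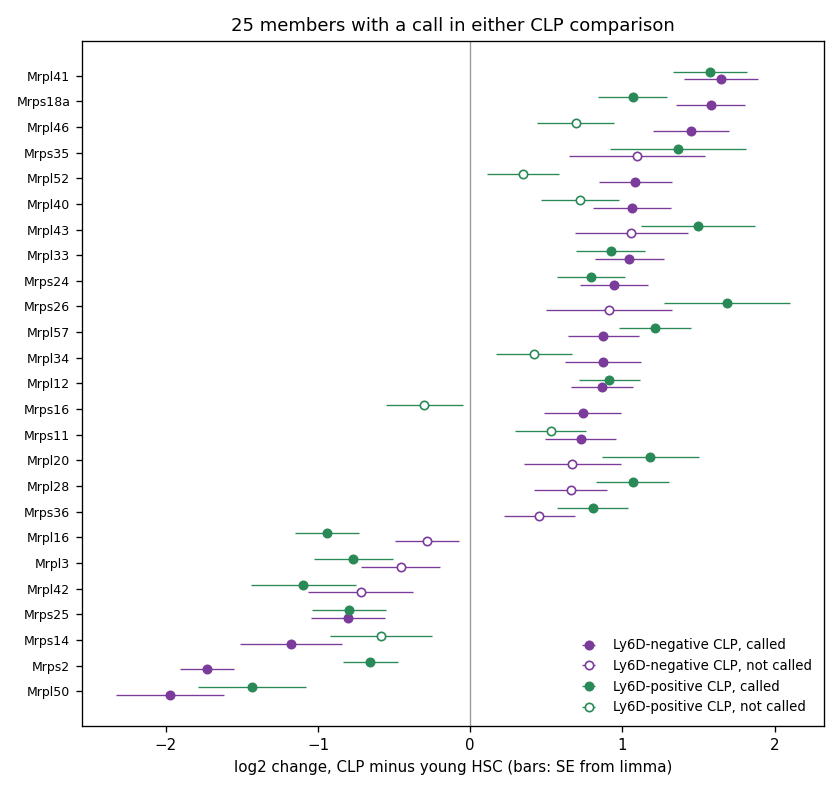
Log2 change from young HSC to Ly6D-negative CLP and to Ly6D-positive CLP of the 25 members called in at least 1 of these comparisons, with the SE from limma as bars and filled points for calls. The decreases of Mrpl50 and Mrps2 and the increases of Mrpl41 and Mrps18a are the largest called in Ly6D-negative CLP.

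The 2 CLP groups differed from each other in 1 member, Mrps2 on chromosome 2, a small subunit protein with a bacterial counterpart (1.32% of members, against 2.68% of all genes). Its intensities were 1119, 1188 and 1079 in young HSC, 317 and 341 in Ly6D-negative CLP and 629 and 801 in Ly6D-positive CLP. The 3 groups did not overlap and Ly6D-negative CLP were lowest. The change from Ly6D-negative to Ly6D-positive CLP was 1.07 ± 0.197, SE, adjusted p 0.0119, and from young HSC to the 2 CLP groups -1.73 ± 0.180, SE, adjusted p 1.95e-05 and -0.66 ± 0.180, SE, adjusted p 0.0173. The second probe set of Mrps2 changed by -0.04 and 0.02 from young HSC and by 0.06 between the CLP groups, so the difference was seen with 1 of its 2 probe sets. The call between CLP groups was lost without Ly6D-positive replicate 2, the array with the actin ratio of 3.85, and when only the 4 CLP arrays were fitted. The part of that ratio was not tested. The call in Ly6D-positive CLP against young HSC was lost without young replicate 2, without Ly6D-positive replicate 1, with quantile normalization and with the mean of both probe sets. Without Ly6D-negative replicate 1, 4 members were called between the CLP groups (5.26%, against 5.25% of all genes). The median over all members was -0.01.

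**Figure D5:**
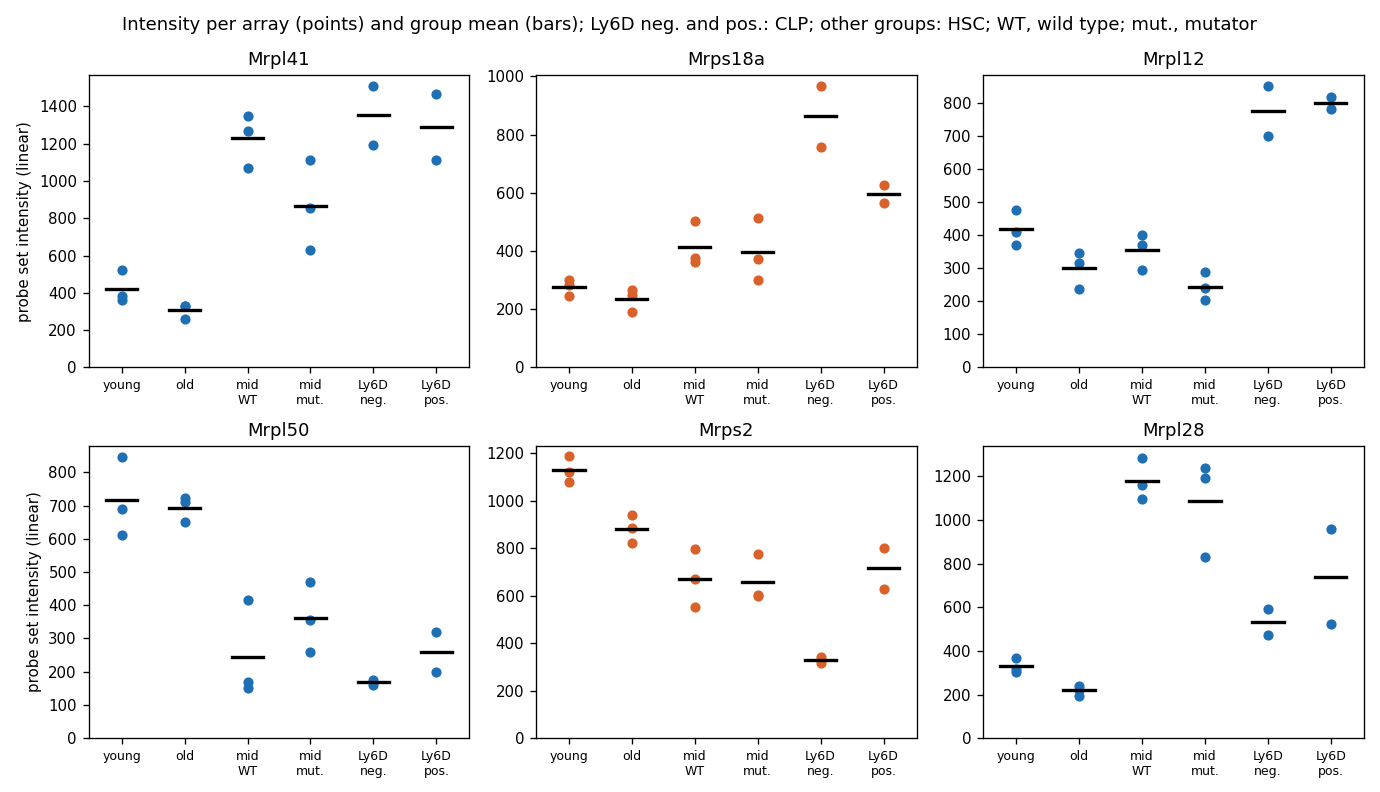
Probe set intensity of 6 members on each of the 16 arrays (points, linear axis from 0) with the group mean as a bar, large subunit symbols in blue and small subunit symbols in orange. Mrpl41, Mrps18a and Mrpl12 are higher in both CLP groups than in young HSC, Mrpl50 and Mrps2 are lower, and Mrpl28 is highest in the mid-aged HSC groups.

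Cell cycle genes summed to 35733 to 41960 in Ly6D-negative CLP, which overlapped young HSC (27965 to 37306), and to 42777 to 48643 in Ly6D-positive CLP. Of 21 tested, 15 were positive and 1 rose in Ly6D-negative CLP (4.76%, against 9.55% of all genes). In Ly6D-positive CLP 19 were positive and 3 rose (14.3%, against 10.4%). Neutrophil markers summed to 4619 to 7970 in Ly6D-negative and 1871 to 2409 in Ly6D-positive CLP, against 1365 to 5852 in young HSC. Mmp8 was at background in both CLP groups, and S100a9 and Lcn2 also in Ly6D-positive CLP. Of 9 tested neutrophil markers 6 had a negative change in Ly6D-negative CLP (median -0.22). Mpo (3.73) alone was called there, as higher (11.1%, against 9.55% of all genes). In Ly6D-positive CLP 8 were negative (median -2.28), without a call. Their part in the members' changes was not tested.

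Among the 3 Mrps18 paralogs, which stand for the same bacterial protein, Mrps18a was the one called in CLP. Mrps18b changed by 0.05 in Ly6D-negative and 0.21 in Ly6D-positive CLP, and Mrps18c by 0.33 and 0.04, none of them called. In old against young HSC the 3 changed by -0.23, -0.29 and -0.33. Mrpl10, the stalk protein that carries Mrpl12, was at -0.09 and -0.21 in the 2 CLP comparisons, without a call. Mrps12, a protein of the decoding center, was at 0.47 in both CLP comparisons and at -0.45 in old HSC, without a call. Against young HSC, Mrps22 ranged from -1.24 in mid-aged wild-type HSC to 0.41 in Ly6D-positive CLP and was not called. Neither were Mrps27, a pentatricopeptide repeat protein, and Mrps34, which changed by -0.49 and 0.40 in Ly6D-negative CLP. Split by ancestry, 44 of 45 members with a bacterial counterpart and 27 of 30 particular to mitochondria were negative in old HSC (medians -0.29 and -0.23). In Ly6D-negative CLP 6 of the 45 and 6 of the 30 rose, against 9.55% of all genes. In each class 2 fell, against 14.9% of all genes.

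Genes that serve the mitochondrial ribosome were read beside its proteins. In old against young HSC none of them was called: 12 of 18 tested genes of mitochondrial transcription and RNA handling were negative (median -0.10), as were 8 of 12 translation factors (-0.07), 12 of 20 tRNA synthetases (-0.03) and 16 of 25 assembly factors (-0.09). The members' median was -0.26. All 4 mitoribosomal proteins with other symbols were negative as well (median -0.28), among them Dap3, a small subunit protein, at -0.08.

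In mid-aged wild-type against young HSC 3 of 12 translation factors fell (25%, against 17.7% of all genes), among them Tufm (-0.78), the mitochondrial elongation factor Tu. None of the 12 rose, against 6.42% of all genes. Of the transcription list 5 of 18 fell (27.8%), including Tfam (-1.16), which packages mitochondrial DNA and starts its transcription. Of the synthetases 5 of 20 fell (25%), including Cars2 (-1.40) and Hars2 (-1.35). Assembly factors went both ways, with 4 higher and 5 lower of 25 (16% and 20%, against 6.42% and 17.7% of all genes). Gtpbp10, a GTPase of large subunit maturation, fell by 1.35, and Dhx30, an RNA helicase of mitochondrial RNA granules, rose by 0.81.

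In CLP 3 of 25 assembly factors rose (12%) and 2 fell (8%) in the Ly6D-negative group, and 4 rose (16%) and 2 fell (8%) in the Ly6D-positive group. Among all genes 9.55% rose and 14.9% fell in Ly6D-negative CLP, and 10.4% rose and 13.9% fell in Ly6D-positive CLP. Malsu1, which keeps unfinished large subunits from joining, rose by 1.65 and 0.87. Rbfa, a small subunit maturation factor, rose by 1.29 and 1.02, while Gtpbp10 fell (-1.63 and -1.51). Tfb1m, another assembly factor, fell in Ly6D-negative CLP (-1.74) and was higher in Ly6D-positive than in Ly6D-negative CLP (2.02). Gadd45gip1, itself a large subunit protein under another symbol, rose by 1.59 and 1.65. The transcription list had 2 of 18 genes higher (11.1%) and 6 lower (33.3%) in Ly6D-negative CLP, among them Fastkd5 (1.36) and Tfb2m (-1.41). Its counts in Ly6D-positive CLP were 1 higher (5.56%) and 2 lower (11.1%). Polrmt, the mitochondrial RNA polymerase, rose there by 2.09, while Mterf1a (-1.34) and Hsd17b10 (-1.26) fell. Translation factors had 2 of 12 lower (16.7%) in Ly6D-negative and 1 of 12 lower (8.33%) in Ly6D-positive CLP, and none higher in either group. Of 20 tRNA synthetase genes 3 rose (15%) and 4 fell (20%) in Ly6D-negative CLP, and 3 rose (15%) and none fell in Ly6D-positive CLP. Vars2 (0.76 and 1.06) and Qrsl1 (0.85 and 1.06) were among those that rose. Of 11 regulators 1 rose (9.09%) and 1 fell (9.09%) in Ly6D-negative CLP, and 1 rose (9.09%) and 3 fell (27.3%) in Ly6D-positive CLP. Myc rose by 1.48 and 1.85, and Mycn, which is expressed in HSC, fell (-2.47 and -4.65). Yy1 (-0.72) and Gabpa (-0.95), a factor that binds the ETS core, fell in Ly6D-positive CLP. The part of these regulators in the members' changes was not tested. Of all members with a promoter window 25 of 67 (37.3%) held the ETS core. Of those higher in Ly6D-negative CLP, 6 of 12 held it, and of the 4 lower members 0 did. In Ly6D-positive CLP the counts were 5 of 11 and 1 of 6, and in mid-aged wild-type HSC 5 of 12 and 2 of 11. Whether the motif goes with the direction of change was not tested.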

How the data were processed

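The deposited values are probe set intensities on a linear scale for 45101 probe sets on 16 Affymetrix mouse arrays, as the authors' series table gives them. The summary, background correction and normalization behind them were not stated in any source used here, and no column was left out. Precision is limited by the number of arrays per group (3, or 2 for CLP). Of the probe sets, 34945 carry 1 symbol, 932 several (left out), 9160 none and 64 are controls, per the platform annotation.

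Values were transformed to log2(intensity + 16). Each gene took its probe set of highest mean over all arrays. Genes above the 40th percentile on at least 3 of 12 HSC arrays (13490) or 2 of 16 arrays (14353) entered limma (version 3.58.1, R 4.3.3; lmFit and eBayes). HSC comparisons used the 12 HSC arrays, and CLP comparisons all 16. Calls are at a Benjamini-Hochberg adjusted p under 0.05 over all genes tested. The script was tested on simulated data. Changes are log2 differences, which the added 16 makes smaller for dim genes.

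Named members are, per comparison, up to 5 called members of largest change in each direction whose groups do not overlap. Where none passed, they are the 3 of smallest p in each direction, as values. Mrps18a, Mrps18b, Mrps18c, Mrpl12, Mrps12, Mrpl10, Mrpl44, Mrps22, Mrps34, Mrps27 and Dap3 were set to be named always. Of each other list only some called members are named, and these are not always the ones of smallest p. Mrps15, Mrpl33, Mrps28, Mrps5, Mrpl52 and Mrps27 in old HSC, Mrpl33 in CLP, the ancestry classes, the promoter motifs and the printed stretches were chosen after values were seen. Members and lists were chosen with earlier results of these data known. Alternatives were quantile normalization, median centring, other filters, pseudocounts of 1 and 64, the mean of a gene's probe sets, trended and robust eBayes, only the groups compared, the replicate number as a block, and leaving out each array. After seeing the data, every probe set and young replicates 2 and 3 counted as 1 were added.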

Additional observations from a re-analysis of the deposited data

Results flagged for a closer look

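The difference between the CLP groups was tested for every member. Mrps2 was the 1 member whose change from young HSC differed between Ly6D-negative and Ly6D-positive CLP, by 1.07 on the log2 scale (higher in Ly6D-positive CLP, adjusted p 0.0119 in limma, n = 2 and 2). Both Ly6D-positive values lay above both Ly6D-negative values. The difference was seen with 1 of its 2 probe sets. The call was lost without Ly6D-positive replicate 2 and when only the CLP arrays were fitted.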

How the results depend on the processing

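With 1 value per gene no named member had its called direction reversed. With any 1 array left out, every called member kept its sign. Among single probe sets, 2 members in mid-aged wild-type against young HSC (Mrpl44 and Mrpl48) and 1 in Ly6D-negative CLP (Mrpl15) were called both ways. The median between the CLP groups ran from -0.13 to 0.10 and that of mutator against mid-aged wild-type HSC from -0.22 to 0.00 with 1 array left out. With any 1 array left out, the called members ranged from 0 to 0 in old against young HSC, from 0 to 3 in mutator against mid-aged wild-type HSC, from 19 to 28 in mid-aged wild-type against young HSC and from 0 to 2 for the difference of effects. The ranges were 11 to 13 in Ly6D-negative CLP, 11 to 15 in Ly6D-positive CLP and 0 to 4 between the CLP groups. In mid-aged wild-type against young HSC the share of all genes called ran from 15.1% to 30.9% in these fits. The members' medians ranged from 0.12 to 0.47 in Ly6D-negative CLP and from 0.21 to 0.36 in Ly6D-positive CLP. Fitting only the groups compared gave 8 calls in old against young HSC and 0 between the CLP groups. Quantile normalization put the median of mid-aged wild-type against young HSC at -0.020. Counting every probe set gave 47 calls in mid-aged wild-type against young HSC, 28 in Ly6D-negative CLP (median 0.085) and 4 between the CLP groups. The cause of these shifts was not tested, apart from the larger number of features when every probe set is counted.

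With the replicate number as a block the counts were 0, 0, 23, 0, 15, 16 and 1 in the order above. Same-numbered arrays did not deviate together in every pair (correlations -0.06 to 0.51 in the HSC groups compared), so the numbers were not taken to pair the arrays. Young and old HSC correlated by 0.51, 0.42 and -0.01. Counting young replicates 2 and 3 as 1 array changed no direction of a median.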

Other observations

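Probe sets with several symbols were left out of the set. One, for Gm6238 and Mrpl30, had intensities of 618 to 674 in young, 507 to 555 in old, 972 to 1528 in mid-aged wild-type, 1043 to 1599 in mutator HSC, 1113 and 1220.1 in Ly6D-negative and 1659 and 996 in Ly6D-positive CLP. For Ccdc142 and Mrpl53 the values were 272 to 337 in young and 206 to 316 in old HSC. The probe set shared by Nme3 and Mrps34 was at 159 to 247 in young and 145 to 169.9 in old HSC and at 36.0 to 91.6 in mutator HSC.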
